A study of Homo sapiens with 12 samples.

Results

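Human mitochondrial DNA (mtDNA) carries 37 genes: 2 ribosomal RNA (rRNA) genes, 13 protein-coding genes and 22 transfer RNA (tRNA) genes. All 37 were rows of the expression table, out of 58735 genes, and were taken as the rows annotated to the mitochondrial chromosome. Of these, 28 are annotated on the + strand of the reference and 9 on the − strand. The − strand genes are MT-ND6 and 8 tRNA genes. Total RNA of 2 established cell lines of human squamous cell carcinoma of the oesophagus, KYSE180 and KYSE150, was sequenced as 12 libraries. The groups were KYSE180 cells with CDCA7 overexpression against native KYSE180 cells, and KYSE150 cells carrying shCDCA7, a short hairpin RNA that targets CDCA7, against native KYSE150 cells, with 3 libraries each. CDCA7 acts in the nucleus together with HELLS, a chromatin remodelling enzyme, and the study asked how it bears on the epithelial to mesenchymal transition driven by TGF-β. All cells grew in the same serum-containing medium, and the controls are labelled native with the genotype WT, with no empty vector or non-targeting hairpin named. The labels do not say whether each manipulated line is a clone or a pool, nor that replicates came from separate cultures. The p-values below therefore measure only spread between these libraries, which may be technical. The tests also draw the variance of each gene toward that of other genes, so a p-value does not rest on the spread of that gene alone.

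The mitochondrial genome is transcribed from both strands as long precursors that cover almost its whole length. These are then cut, largely at the tRNAs that sit between the other genes, into rRNAs, mRNAs and tRNAs. The mRNAs encode core subunits of respiratory complexes I, III and IV and of the ATP synthase, and the rRNAs build the mitochondrial ribosome that translates them. Genes annotated on the + strand share 1 direction of transcription with both rRNAs, while MT-ND6 and the − strand tRNAs are read in the other direction. Because the genes of a strand start out on the same precursors, differences in level between neighbouring genes have been linked to cutting, polyadenylation, decay and early termination after the rRNAs.

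The genes lie almost end to end, and some share bases, which limits how reads can be assigned. MT-ATP8 and MT-ATP6 overlap by 46 bases, and MT-ND4L and MT-ND4 by 7. Both pairs sit on a shared mRNA. The junctions are shown because the values of the shorter partner rest on reads that may reach into the longer one. They run 5′ to 3′ on the + strand of GRCh38 from the GENCODE 29 transcripts, and capitals mark the shared bases.
MT-ATP8 and MT-ATP6, MT:8507-8592: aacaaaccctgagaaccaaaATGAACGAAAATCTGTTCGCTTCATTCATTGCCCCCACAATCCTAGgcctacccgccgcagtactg
MT-ND4L and MT-ND4, MT:10740-10786: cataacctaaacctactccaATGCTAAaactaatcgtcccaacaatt

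Among the tRNA genes, MT-TN and MT-TC of a − strand cluster between MT-ND2 and MT-CO1, with the − strand gene MT-TP, carried most tRNA reads in every library. The cluster members MT-TA and MT-TY had only 18 and 710 reads in total over the 12 libraries. The sequences of 4 cluster members and of MT-TP are given 5′ to 3′ on the − strand of GRCh38, with the anticodon in capitals. They are the tRNAs for alanine (MT-TA), asparagine (MT-TN), cysteine (MT-TC), tyrosine (MT-TY) and proline (MT-TP).
MT-TA, MT:5587-5655: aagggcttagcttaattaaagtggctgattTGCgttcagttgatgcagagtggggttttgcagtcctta
MT-TN, MT:5657-5729: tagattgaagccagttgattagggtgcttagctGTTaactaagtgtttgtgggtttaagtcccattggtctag
MT-TC, MT:5761-5826: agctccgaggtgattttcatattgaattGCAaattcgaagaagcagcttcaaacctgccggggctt
MT-TY, MT:5826-5891: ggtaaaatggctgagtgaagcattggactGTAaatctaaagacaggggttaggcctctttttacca
MT-TP, MT:15956-16023: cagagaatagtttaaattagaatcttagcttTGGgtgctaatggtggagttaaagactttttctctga

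Values below are FPKM as the authors deposited them, that is fragments per kilobase of gene, scaled for library size. The recovered reads added up to 16.3 M to 19.6 M for each library. CDCA7 itself was at 44.6, 59.1 and 57.9 FPKM with overexpression, against 24.0, 18.2 and 17.4 FPKM in native KYSE180 cells. It was at 9.24, 10.1 and 8.83 FPKM with shCDCA7, against 27.4, 25.6 and 25.6 FPKM in native KYSE150 cells. All 8 squamous epithelial markers examined were above 1 FPKM, with summed levels of 3821 to 4449 FPKM with overexpression against 1733 to 3630 FPKM in its controls, and of 791 to 881 FPKM with shCDCA7 against 624 to 658 FPKM in its controls. The part of these higher squamous sums in the mtDNA results was not tested. Of 5 fibroblast markers 1, COL1A1, was above 1 FPKM in any library, with list sums of 4.70 to 5.27 FPKM with overexpression against 3.23 to 5.48 FPKM, and of 1.27 to 1.64 FPKM with shCDCA7 against 0.784 to 0.842 FPKM. None of 5 leukocyte markers and 1 of 4 endothelial markers, VWF, exceeded 1 FPKM, and the leukocyte gene LYZ was at 0 in all libraries. shCDCA7 replicate 2 stood apart from all other libraries in its mtDNA values, and results that rest on it are given with and without it. In KYSE150 the fit without it called 7982 of 14342 genes at an adjusted p under 0.05 (limma-trend), against 2854 with all libraries. Calls of single genes from that fit are to be read beside this share.

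The rRNAs were the class of mtDNA transcripts that differed most from the controls, in both lines and in the same direction. They made up 27.0, 20.7 and 24.6% of all mtDNA reads with CDCA7 overexpression, against 6.69, 9.24 and 7.93% in native KYSE180 cells. They made up 33.4, 34.03 and 33.4% of mtDNA reads with shCDCA7, against 17.6, 16.3 and 18.0% in native KYSE150 cells. In neither line did the groups overlap, and shCDCA7 replicate 2 lay with its group on this measure. The 95% Wilson intervals of these shares reach at most 0.1002 percentage points to either side and cover counting error only.

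Of all reads in a library, rRNA genes took 2.15, 1.77 and 2.12% with overexpression, against 0.319, 0.481 and 0.506% in native KYSE180 cells. With shCDCA7 they took 1.74, 3.82 and 1.91%, against 0.707, 0.677 and 0.739% in native KYSE150 cells. The ratio of group means, on the log2 scale, stayed between 2.03 and 2.34 in KYSE180 and between 1.37 and 2.02 in KYSE150 when each library was left out in turn. These are sums over genes, described without a test. In bulk RNA, a change in the number of cells of a type and a change in RNA per cell cannot be told apart.

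The protein-coding genes differed less. They took 5.77, 6.73 and 6.48% of all reads with overexpression, against 4.41, 4.69 and 5.84% in native KYSE180 cells, and the groups overlapped. With shCDCA7 they took 3.43, 7.36 and 3.77%, against 3.30, 3.45 and 3.34% in native KYSE150 cells. There, 1 of the 3 shCDCA7 libraries was far above the rest, and replicate 1 lay within the control range. All mtDNA genes together took 7.97, 8.56 and 8.65% with overexpression, against 4.76, 5.20 and 6.38%, and 5.20, 11.2 and 5.73% with shCDCA7, against 4.03, 4.15 and 4.10%. The plot of reads by class shows that the rRNA part was larger in every manipulated library than in any control of its line.

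**Figure D1:**
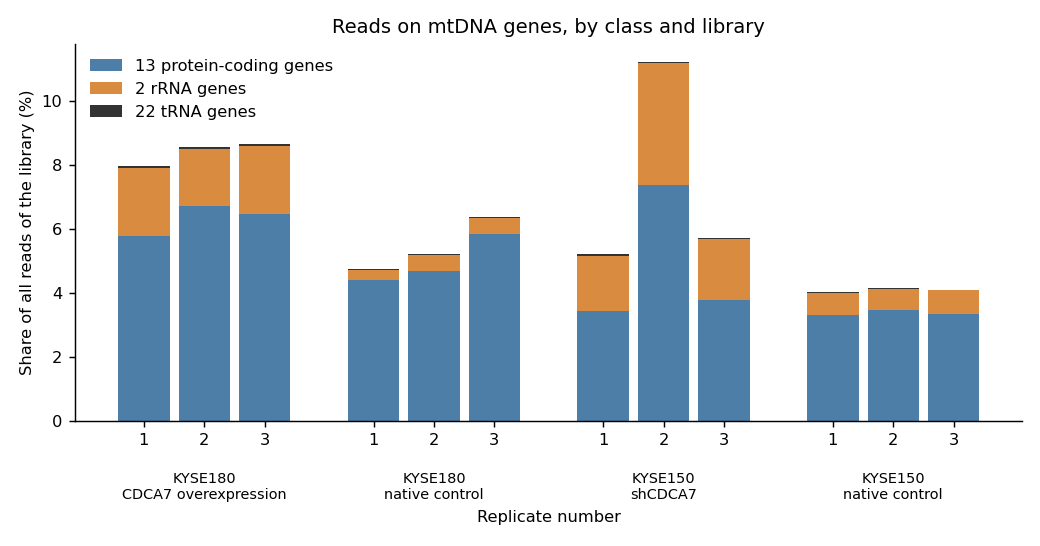
Share of all reads of each library (%, y axis) on the 13 protein-coding, 2 rRNA and 22 tRNA genes of mtDNA, stacked, for replicates 1 to 3 of each group (x axis). The rRNA part spans 1.77 to 2.15% with overexpression against 0.319 to 0.506% in its controls, and 1.74 to 3.82% with shCDCA7 against 0.677 to 0.739% in its controls.

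In KYSE180, 26 of the 37 genes had enough reads to be tested, and 3 rose and 1 fell with CDCA7 overexpression (limma-trend, Benjamini-Hochberg adjusted p under 0.05). Over all 15944 genes tested in this line, 9.08% were called, 4.65% higher and 4.43% lower. By class, both rRNAs, 1 of 13 mRNAs (MT-ND6) and none of 11 tested tRNAs rose, while 1 tRNA (MT-TY) fell. Of these tRNAs, 5 were higher and 1 was lower at an unadjusted p under 0.05, and limma-voom on the recovered reads called 4, of which 3 were higher. The groups did not overlap for 13 of the 26 genes in the higher and 1 in the lower direction, against 17.7% and 17.4% of all genes. The median log2 difference of the 26 was 0.44, against −0.0049 over all genes tested.

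In KYSE150, 27 of the 37 were tested, and 5 rose and 1 fell with shCDCA7. Of all 14342 genes tested, 19.9% were called in this line, 10% higher and 9.86% lower. Both rRNAs rose, 0 of 13 mRNAs were called in limma-trend, and of 12 tested tRNAs 3 rose and 1 fell. Of the mRNAs, 4 (MT-CO2, MT-ND4, MT-ND4L and MT-ND6) had an unadjusted p under 0.05, and limma-voom on the recovered reads called 0. The groups did not overlap for 12 genes in the higher and 4 in the lower direction, against 25.3% and 22.5% of all genes. The 27 had a median log2 difference of 0.07, against 0.0020 over all genes. Library totals as the scale moved that median of all genes to −0.16, with 776 genes called higher and 3015 lower against 1440 and 1414 with the deposited scale, and 4 members were then called higher and 3 lower. On that scale MT-ND1, MT-ND2, MT-ATP6, MT-ATP8 and MT-CYB had differences between −0.26 and −0.07 in KYSE150, whereas all 5 were above 0 with the deposited scale. In KYSE180 library totals gave 502 higher and 1229 lower against 741 and 706, with the same number of members called in each direction.

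MT-RNR2 (MT:1671-3229) encodes the 16S rRNA of the large mitochondrial ribosomal subunit. It was at 12831, 10242 and 12537 FPKM with overexpression, against 1550.3, 2368 and 2488 FPKM in native KYSE180 cells. The groups lay far apart, and the lowest overexpression library was over 4 times the highest control. MT-RNR2 had a log2 difference of 2.498 (SE 0.46, adjusted p = 0.0263, limma-trend), a rise. In KYSE150 it was at 10004, 28326 and 10965 FPKM with shCDCA7, against 3299, 3081 and 3335 FPKM in native cells. All 3 shCDCA7 libraries were above all controls, with replicate 2 highest, and MT-RNR2 rose by 2.17 (SE 0.42, adjusted p = 0.0171, limma-trend).

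MT-RNR1 (MT:648-1601), the 12S rRNA of the small subunit, lies upstream of MT-RNR2 and is separated from it by the tRNA gene MT-TV alone. It was at 2504, 1663 and 2043 FPKM with overexpression, against 632, 847 and 729 FPKM in native KYSE180 cells. It rose by 1.48 (SE 0.28, adjusted p = 0.0276, limma-trend), with no overlap. In KYSE150 its levels were 2523, 3584 and 2816 FPKM with shCDCA7, against 1392, 1497 and 1607 FPKM in native KYSE150 cells. It rose by 0.98 (SE 0.18, adjusted p = 0.0154, limma-trend), again with no overlap.

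The ratio of the 16S to the 12S rRNA was higher in the manipulated cells. MT-RNR2 stood at 5.12, 6.16 and 6.14 times the FPKM of MT-RNR1 with overexpression, against 2.45, 2.80 and 3.42 times in native KYSE180 cells. With shCDCA7 the ratio was 3.96, 7.90 and 3.89, against 2.37, 2.06 and 2.07 in native KYSE150 cells. Neither line showed an overlap. Relative to MT-ND1, the first protein-coding gene downstream, MT-RNR2 was at 6.01, 4.39 and 5.44 times its FPKM with overexpression, against 0.741, 1.16 and 1.01 times in native KYSE180 cells. With shCDCA7 this ratio was 8.91, 16.1 and 8.55, against 2.67, 2.28 and 2.54 in native KYSE150 cells. A ratio within a library does not depend on its scaling.

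The direction of both rRNA changes held over the alternatives, while the calls did not. In KYSE180, the log2 difference of MT-RNR2 ran from 2.28 to 2.62 and that of MT-RNR1 from 1.33 to 1.63 over 13 alternatives, with adjusted p from 0.00185 to 0.324 and from 0.00277 to 0.1505. The call of MT-RNR2 was lost without overexpression replicate 1 (adjusted p = 0.0773), 2 (0.0674) or 3 (0.121), without control replicate 1 (0.120), with a replicate block (0.0767) and with no filter on low reads (0.324), all in limma-trend. That of MT-RNR1 was lost in the same fits (0.0819, 0.0613, 0.123, 0.112, 0.0713 and 0.1505). Those 4 fits without a library called only 22, 209, 19 and 87 of the 15944 genes. In KYSE150, MT-RNR2 ran from 1.69 to 2.45 with adjusted p from 5.18e-05 to 0.1505, and MT-RNR1 from 0.71 to 1.09 with adjusted p from 0.000407 to 0.133. There the calls were lost without control replicate 1, 2 or 3 (0.0793, 0.0867 and 0.0755 for MT-RNR2, and 0.0876, 0.0869 and 0.0681 for MT-RNR1) and with no filter. MT-RNR1 was also not called with the replicate block (0.0550), and both were called without shCDCA7 replicate 2. Without that library the ratio of mean MT-RNR2 FPKM with shCDCA7 to that in native cells was 3.24, against 5.07 with it.

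**Figure D2:**
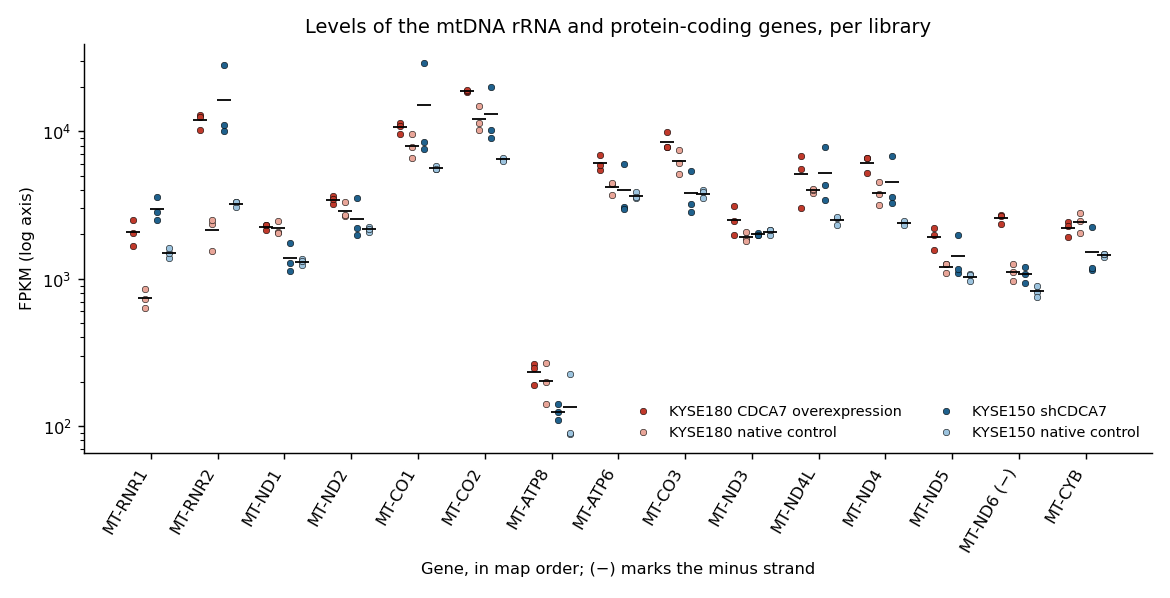
FPKM of each library (points, log axis) for the 2 rRNA and 13 protein-coding genes in map order, with a bar at the mean of each group of 3. MT-RNR2 lies at 10242 to 12831 FPKM with overexpression against 1550.3 to 2488 FPKM in its controls, and MT-ATP8 is the lowest gene in every group.

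Levels of the mRNAs spanned a wide range although the + strand genes start out on shared precursors. In FPKM, which is per length, MT-CO2, a subunit of cytochrome c oxidase (complex IV), was the highest mRNA in 3 of the 4 groups, with 18778 ± 239 FPKM under overexpression and 12178.5 ± 2397 FPKM in native KYSE180 cells (SD, n = 3 each). MT-CO1, the catalytic subunit of the same complex, was next to it, at 10634 ± 891 FPKM with overexpression and 7978 ± 1522 FPKM in native KYSE180 cells. In native KYSE150 cells these 2 genes were at 6460 ± 155 and 5616 ± 146 FPKM. MT-CO1, MT-CO2 and MT-CO3 together held 51.9 to 58.9% of the mRNA reads in 11 libraries and 68.7% in shCDCA7 replicate 2. MT-ATP8, a small subunit of the ATP synthase, was lowest in all 4 groups, at 234 ± 38.8 FPKM with overexpression and 202.8 ± 63.7 FPKM in its controls. Its mRNA partner MT-ATP6 had 23.8 to 28.6 times the FPKM of MT-ATP8 with overexpression, against 16.5 to 26.1 times in native KYSE180 cells. Since the reads of the shared bases can be given to either gene or to none, the ratio depends on the counting rule, which no source used here states.

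Complex IV mRNAs were higher in the overexpression libraries than in the controls without passing the test. MT-CO2 was at 18536, 18784 and 19015 FPKM with overexpression, against 10295, 11365 and 14876 FPKM in native KYSE180 cells. All overexpression values were above all control values, and the log2 difference was 0.64 (SE 0.72, adjusted p = 0.588, limma-trend). MT-CO1 was at 9643, 11367 and 10892 FPKM, against 7808, 6548 and 9578 FPKM (0.43, SE 0.58, adjusted p = 0.658). MT-CO3 was at 9951, 7813 and 7841 FPKM, against 5165, 7457 and 6132 FPKM (0.46, SE 0.53, adjusted p = 0.6002). For both genes every overexpression library was above every control. In contrast to limma-trend, limma-voom on the recovered reads called MT-CO2 (0.64, adjusted p = 0.04999, range over 13 alternatives 0.04999 to 0.917) but neither MT-CO1 nor MT-CO3. The SEs in limma-voom were 0.18 for MT-CO2, 0.19 for MT-CO1 and 0.19 for MT-CO3, far below those in limma-trend.

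In KYSE150 the complex IV genes differed from each other. MT-CO1 was at 7609, 29288 and 8421 FPKM with shCDCA7, against 5533, 5784 and 5531 FPKM in native cells (log2 difference 1.14, SE 0.52, adjusted p = 0.171, limma-trend). MT-CO2 was at 9082, 19916 and 10200 FPKM, against 6414, 6633 and 6332 FPKM (0.93, SE 0.34, adjusted p = 0.0996). Both groups of libraries were separate, and replicate 2 was by far the highest. MT-CO3 was at 2822, 5387 and 3208 FPKM, against 3510.3, 3972 and 3852 FPKM (−0.05, SE 0.27, adjusted p = 0.921), with 2 shCDCA7 libraries below and 1 above all controls. Without replicate 2, MT-CO1 (0.51, adjusted p = 0.00849) and MT-CO2 (0.58, adjusted p = 0.00682) were called higher and MT-CO3 lower (−0.33, adjusted p = 0.0355). That fit called 7982 of the 14342 genes tested, 4232 higher and 3750 lower. Over 13 alternatives the adjusted p ran from 0.00849 to 0.536 for MT-CO1, from 0.00682 to 0.567 for MT-CO2 and from 0.0355 to 1 for MT-CO3.

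Of the ATP synthase subunits, MT-ATP6, part of the proton channel, was at 5443, 6911 and 5954 FPKM with overexpression, against 3686, 4423 and 4440.1 FPKM in native KYSE180 cells. Again there was no overlap, and the log2 difference of 0.54 (SE 0.44) did not pass the test (adjusted p = 0.444, limma-trend). The shCDCA7 libraries held 3053, 5998 and 2994 FPKM, against 3526, 3850 and 3587 FPKM in native KYSE150 cells, so that replicates 1 and 3 were below and replicate 2 above all controls (0.06, SE 0.30, adjusted p = 0.912). Without replicate 2 it was called lower (−0.27, adjusted p = 0.0381, range over 13 alternatives 0.0381 to 0.999). MT-ATP8 stood at 190.3, 263 and 249.6 FPKM with overexpression, against 141, 198 and 269 FPKM (0.24, SE 0.25, adjusted p = 0.557). Its level was 109, 142 and 125 FPKM with shCDCA7, against 88.1, 89.2 and 225 FPKM (0.04, SE 0.37, adjusted p = 0.944). Both pairs of groups overlapped. Native KYSE150 replicate 3, at 931 reads on MT-ATP8 against 390 and 359 in replicates 1 and 2, stood apart for this gene, and without it the difference was 0.49.

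Complex I has 6 of its + strand subunits among the members. MT-ND4, at 5185, 6633 and 6571 FPKM with overexpression against 3152, 3776 and 4509 FPKM in native KYSE180 cells, showed no overlap (0.69, SE 0.44, adjusted p = 0.329, limma-trend). MT-ND5, the longest mRNA, was at 1580, 1981 and 2226 FPKM, against 1261, 1090 and 1250.3 FPKM, also without overlap (0.67, SE 0.28, adjusted p = 0.156). On the recovered reads limma-voom called both MT-ND4 (0.69, adjusted p = 0.0470) and MT-ND5 (0.67, adjusted p = 0.0392), with ranges over 13 alternatives of 0.0470 to 0.750 and 0.0392 to 0.511. MT-ND4L, which shares an mRNA with MT-ND4, was at 3019, 6762 and 5547 FPKM, against 3847, 4015 and 4057 FPKM (0.28, SE 0.48, adjusted p = 0.726). Here replicate 1 of the overexpression group was below every control, so the groups overlapped although MT-ND4 did not. MT-ND1 (2257 ± 108 FPKM with overexpression and 2202 ± 237 FPKM in its controls), MT-ND2 (3445 ± 210.4 and 2887 ± 357 FPKM) and MT-ND3 (2516 ± 557 and 1923 ± 146 FPKM; SD, n = 3 each) did not pass the test, with log2 differences of 0.04, 0.26 and 0.37 (adjusted p of 0.946, 0.664 and 0.491).

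In KYSE150, MT-ND4 and MT-ND4L were higher in all 3 shCDCA7 libraries. MT-ND4 was at 3282, 6786 and 3612 FPKM with shCDCA7, against 2416, 2460.3 and 2333 FPKM in native cells (0.85, SE 0.30, adjusted p = 0.0907, limma-trend). MT-ND4L was at 3416, 7825 and 4357 FPKM, against 2325, 2587 and 2607 FPKM (0.96, SE 0.32, adjusted p = 0.0778). Neither passed the test with all libraries, and both did without replicate 2 (0.52, adjusted p = 0.00236, and 0.62, adjusted p = 0.00527), with ranges over 13 alternatives of 0.00236 to 0.352 and 0.00527 to 0.321. MT-ND5 was at 1095, 1997 and 1169 FPKM, against 1074, 1069 and 965 FPKM (0.40, SE 0.25, adjusted p = 0.284), just without overlap. MT-ND3 differed little between libraries of this line, at 1994, 2034 and 1970.1 FPKM with shCDCA7 against 1981, 2139 and 2156 FPKM in native cells (−0.06, SE 0.13, adjusted p = 0.759). MT-ND1 (1388 ± 331 FPKM with shCDCA7 and 1300.3 ± 57.9 FPKM in its controls) and MT-ND2 (2564 ± 835 and 2172 ± 76.2 FPKM) overlapped with their controls, with differences of 0.07 and 0.19 (adjusted p of 0.825 and 0.601).

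MT-CYB, cytochrome b of complex III, is the last mRNA on the + strand. It was the only mRNA whose KYSE180 mean was lower with overexpression, at 1908, 2437 and 2286 FPKM, against 2038, 2466 and 2791 FPKM in the controls. The groups overlapped (−0.13, SE 0.33, adjusted p = 0.820, limma-trend). The shCDCA7 libraries had 1155, 2240.1 and 1178 FPKM, against 1406, 1465 and 1462 FPKM in native KYSE150 cells (0.01, SE 0.27, adjusted p = 0.991). Replicates 1 and 3 were below all controls and replicate 2 above them, and without replicate 2 MT-CYB was called lower (−0.31, adjusted p = 0.00529, range over 13 alternatives 0.00529 to 1).

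MT-ND6 (MT:14149-14673), a complex I subunit, is the only mRNA of the − strand. It was at 2703, 2345 and 2663 FPKM with overexpression, against 1117, 964 and 1254 FPKM in native KYSE180 cells. The groups were well apart, and MT-ND6 rose by 1.21 (SE 0.28, adjusted p = 0.0411, limma-trend). It was the only mRNA that limma-trend called in this line, while limma-voom on the recovered reads called 4 of 13. Its log2 difference ran from 1.09 to 1.31 over 13 alternatives, with adjusted p from 0.00279 to 0.272. The call was lost without overexpression replicate 1 (0.0986), 2 (0.0961) or 3 (0.177), without control replicate 1 (0.146) or 2 (0.0605), with the replicate block (0.114) and with no filter (0.272). In shCDCA7 cells it stood at 1073, 1205 and 941 FPKM, against 899, 815 and 750.2 FPKM in native KYSE150 cells. These groups did not overlap either, and the difference of 0.38 (SE 0.15) did not pass the test (adjusted p = 0.112), but did without replicate 2 (0.29, adjusted p = 0.0344, range over 13 alternatives 0.0344 to 0.505).

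MT-ND6 lies next to MT-ND5, which is read from the opposite strand. It stood at 1.71, 1.18 and 1.196 times the FPKM of MT-ND5 with overexpression, against 0.886, 0.885 and 1.003 times in native KYSE180 cells, with no overlap. With shCDCA7 the ratio was 0.980, 0.603 and 0.805, against 0.837, 0.763 and 0.778 in native KYSE150 cells, and the groups overlapped. No source used here states whether reads were counted by strand. Reads from an RNA antisense to MT-ND6, such as the long + strand precursor, therefore cannot be told apart from MT-ND6 mRNA.

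All − strand genes together held 2.40, 2.07 and 2.16% of mtDNA reads with overexpression, against 1.98, 1.62 and 1.67% in native KYSE180 cells, with no overlap. With shCDCA7 they held 1.69, 0.853 and 1.51%, against 1.73, 1.57 and 1.52% in native KYSE150 cells. There the groups overlapped, and replicate 2 was lowest of the 12 libraries. Taken from sums of FPKM, which weigh short genes more, the log2 ratio of the shCDCA7 to the control mean of this share was 0.27, against a value below 0 from reads. Of all reads in a library, − strand genes took 0.178 to 0.191% with overexpression against 0.0840 to 0.106% in its controls, and 0.0867 to 0.0958% with shCDCA7 against 0.0625 to 0.0696%. The + strand genes took 7.78 to 8.46% against 4.67 to 6.27%, and 5.12 to 11.1% against 3.96 to 4.09%. On this scale no groups overlapped. By called genes, 1 of 6 tested − strand genes rose and 1 fell in KYSE180, and 2 of 20 on the + strand rose, beside 4.65% higher and 4.43% lower over all genes. The median log2 differences were 0.75 on the − strand and 0.40 on the + strand. In KYSE150, 2 of 5 on the − strand rose, and 3 of 22 on the + strand rose and 1 fell, beside 10% higher and 9.86% lower over all genes. The medians were 1.25 on the − strand and 0.05 on the + strand. Within the tRNA genes alone, the KYSE180 median was 0.73 for 5 tested − strand genes and 0.10 for 6 on the + strand, with 1 on the − strand called lower. In KYSE150 it was 1.25 for 4 tested − strand genes, 2 of them called higher, and −0.61 for 8 on the + strand, with 1 called in each direction. The strands were not compared by a test, and whether reads were counted by strand is not stated in the sources used here.

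**Figure D3:**
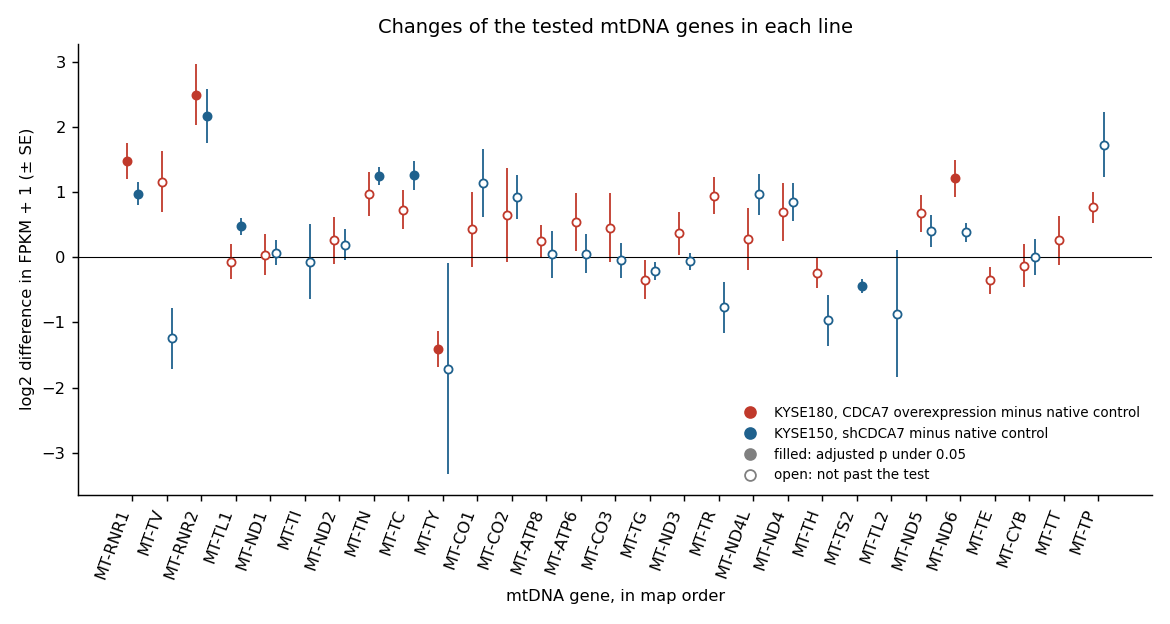
log2 difference in FPKM + 1 (± SE) for each tested mtDNA gene in map order, CDCA7 overexpression minus native control in KYSE180 and shCDCA7 minus native control in KYSE150. Filled points pass an adjusted p under 0.05: MT-RNR2 at 2.498 and 2.17 is the highest, and MT-TY at −1.41 is the lowest filled point.

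The tRNA genes held 0.580 to 0.710% of mtDNA reads with overexpression, against 0.554 to 0.723% in native KYSE180 cells. They held 0.413 to 0.716% with shCDCA7, against 0.517 to 0.539% in native KYSE150 cells. These shares overlapped in both lines. Of all reads in a library, the tRNA genes took 0.0502 to 0.0566% with overexpression, against 0.0313 to 0.0353% in native KYSE180 cells. With shCDCA7 they took 0.0355 to 0.0464%, against 0.0213 to 0.0221% in native KYSE150 cells, and here neither line showed an overlap. In every library MT-TN, MT-TC and MT-TP, all on the − strand, took most of the tRNA reads, with 95.2 to 96.6% under overexpression, against 91.1 to 94.3% in native KYSE180 cells. The same 3 genes took 92.6 to 96.8% with shCDCA7, against 82.2 to 85.7% in native KYSE150 cells, and the groups did not overlap in either line. The other tRNA genes were far lower, and 8 of the 22 had too few reads to be tested in any fit. Those 8 are MT-TF, MT-TQ, MT-TM, MT-TW, MT-TA, MT-TS1, MT-TD and MT-TK, with 7 to 73 reads in total over the 12 libraries and at most 17 in a single library. MT-TK had 0 reads in all 6 KYSE150 libraries. Counts per gene do not show whether a read came from a mature tRNA or from a longer transcript that still holds it.

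MT-TN, the tRNA for asparagine, was at 4254, 3841 and 3589 FPKM with overexpression, against 2000, 1859 and 2103 FPKM in native KYSE180 cells. Every overexpression library was above every control, and the log2 difference of 0.97 (SE 0.34) did not pass the test (adjusted p = 0.105, limma-trend). In shCDCA7 cells it reached 2500.1, 2787 and 2768 FPKM, against 1025, 1161 and 1199 FPKM in native KYSE150 cells. All shCDCA7 libraries were more than 2 times as high as the control mean, and replicate 2 lay close to the others. MT-TN rose by 1.25 (SE 0.14, adjusted p = 0.00437), and it was called in all 13 alternatives for this line, with log2 differences from 0.99 to 1.30 and adjusted p from 9.4e-05 to 0.048.

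MT-TC, the tRNA for cysteine, was at 2643, 2325 and 1979 FPKM with overexpression, against 1590.03, 1183 and 1411 FPKM in native KYSE180 cells (0.73, SE 0.30, adjusted p = 0.152, limma-trend), with no overlap. With shCDCA7 it was at 1898, 3335 and 2282 FPKM, against 1034, 1002 and 1017 FPKM in native KYSE150 cells. It rose by 1.26 (SE 0.22, adjusted p = 0.0136) in KYSE150, again without overlap. That call was lost without control replicate 1 (0.0692), 2 (0.0747) or 3 (0.0682) and with no filter (0.0745), over a range of 0.000149 to 0.0747 in 13 alternatives.

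MT-TP, the tRNA for proline, lies at the far end of the map. It was at 1242, 1345 and 1434 FPKM with overexpression, against 681, 923 and 775 FPKM in native KYSE180 cells (0.77, SE 0.24, adjusted p = 0.0830, limma-trend). With shCDCA7 it was at 474, 1990.4 and 644 FPKM, against 248, 253 and 265 FPKM in native KYSE150 cells (1.73, SE 0.50, adjusted p = 0.0563). In both lines every manipulated library was above every control, and neither difference passed the test with all libraries. The KYSE150 difference passed without shCDCA7 replicate 1 (2.14, adjusted p = 0.0414), without replicate 2 (1.11, adjusted p = 0.000334) and in a fit of all 12 libraries (0.0137), and the range over 13 alternatives was 0.000334 to 0.167. In KYSE180, limma-voom on the recovered reads called MT-TN (adjusted p = 0.00823), MT-TC (0.0279) and MT-TP (0.0209), with ranges over 13 alternatives of 0.00823 to 0.547, 0.0279 to 0.531 and 0.0209 to 0.325.

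MT-TY, the tRNA for tyrosine, shares its last base with the start of MT-TC on the same strand and was the only member called lower in KYSE180. It had 27.2, 21.1 and 23.8 FPKM with overexpression (29, 25 and 29 reads), against 106, 48.9 and 53.0 FPKM in native KYSE180 cells (120, 60 and 69 reads). All 3 overexpression libraries were below all controls, and MT-TY fell by 1.41 (SE 0.28, adjusted p = 0.0293, limma-trend). Its difference ran from −1.61 to −1.06 over 13 alternatives, with adjusted p from 0.0120 to 0.488. The call was lost without overexpression replicate 1 (0.0920), 2 (0.0840) or 3 (0.109), with no filter (0.109) and in a fit of all 12 libraries (0.488). In KYSE150 it had 73.8, 0 and 63.8 FPKM with shCDCA7 (77, 0 and 74 reads), against 65.9, 67.0 and 36.4 FPKM in native cells (93, 86 and 48 reads), so replicate 2 had no read on a gene whose same-strand neighbour MT-TC was highest in that library. The difference there did not pass the test (−1.71, SE 1.62, adjusted p = 0.485), and without replicate 2 it was 0.33.

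On the + strand, MT-TL1, the tRNA for leucine that follows MT-RNR2 without a gap, was at 52.3, 69.2 and 63.7 FPKM with shCDCA7, against 39.9, 46.0 and 46.0 FPKM in native KYSE150 cells. It rose by 0.47 (SE 0.13, adjusted p = 0.0466, limma-trend), with no overlap. The call was lost in 10 of 13 alternatives, among them each control left out (0.177, 0.137 and 0.125), shCDCA7 replicate 3 left out (0.116) and library totals as the scale (0.21, adjusted p = 0.182), with a range of 0.0120 to 0.189. In KYSE180 it was at 56.1, 119 and 82.5 FPKM with overexpression, against 104, 72.5 and 84.5 FPKM (−0.07, SE 0.27, adjusted p = 0.889), and the groups overlapped.

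MT-TS2, a tRNA for serine in the MT-TH, MT-TS2 and MT-TL2 run between MT-ND4 and MT-ND5, was at 15.01, 12.4 and 14.5 FPKM with shCDCA7 (14, 10 and 15 reads), against 19.0, 20.1 and 18.6 FPKM in native KYSE150 cells (24, 23 and 22 reads). It fell by 0.44 (SE 0.10, adjusted p = 0.0292, limma-trend), without overlap. The call was lost in 8 of 13 alternatives: without control replicate 1 (0.123), 2 (0.138) or 3 (0.104), without shCDCA7 replicate 3 (0.0674), with the replicate block (0.101), with no filter (0.0517), with limma-voom (0.288) and in a fit of all 12 libraries (0.336). The range was 0.000828 to 0.336. MT-TH, at 55.0, 22.2 and 65.9 FPKM with shCDCA7 against 98.9, 74.6 and 85.5 FPKM, was also below all controls (−0.97, SE 0.39, adjusted p = 0.125). MT-TL2, at 15.1, 0 and 8.01 FPKM with shCDCA7 against 8.56, 6.52 and 11.3 FPKM, overlapped (−0.87, SE 0.98, adjusted p = 0.560), and without replicate 2 the difference was 0.33.

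MT-TV, the tRNA for valine between both rRNA genes, had 17.0, 21.8 and 7.87 FPKM with overexpression (19, 27 and 10 reads), against 2.53, 7.80 and 9.56 FPKM in native KYSE180 cells (3, 10 and 13 reads). The groups overlapped (1.16, SE 0.47, adjusted p = 0.143, limma-trend). With shCDCA7 it had 13.7, 25.4 and 5.77 FPKM (15, 24 and 7 reads), against 37.3, 27.6 and 31.2 FPKM in native KYSE150 cells (55, 37 and 43 reads). All shCDCA7 libraries were below all controls (−1.25, SE 0.46, adjusted p = 0.105), although both rRNAs beside it rose, and without replicate 2 MT-TV was called lower (−1.71, adjusted p = 0.00273, range over 13 alternatives 0.00273 to 0.268), as it was with library totals (−1.50, adjusted p = 0.0452).

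MT-TR, the tRNA for arginine, was at 79.9, 102 and 63.5 FPKM with overexpression, against 55.5, 26.5 and 47.6 FPKM in native KYSE180 cells (0.94, SE 0.28, adjusted p = 0.0744, limma-trend). With shCDCA7 it was at 65.2, 22.5 and 56.9 FPKM, against 89.9, 64.1 and 74.6 FPKM in native KYSE150 cells (−0.77, SE 0.39, adjusted p = 0.206). The groups were separate in KYSE180 and overlapped in KYSE150. MT-TG, the tRNA for glycine, was at 8.78 to 21.3 FPKM with overexpression against 16.6 to 23.1 FPKM (−0.34, SE 0.30, adjusted p = 0.475). With shCDCA7 it was at 68.8 to 90.3 FPKM against 91.9 to 103 FPKM, all below the controls (−0.21, SE 0.13, adjusted p = 0.294), and MT-TG passed with library totals (−0.47, adjusted p = 0.0355, range over 13 alternatives 0.0355 to 0.674). Of the other tested tRNA genes, MT-TH (−0.24), MT-TE (−0.36) and MT-TT (0.26) in KYSE180 and MT-TI (−0.07) in KYSE150 gave adjusted p of 0.529, 0.287, 0.684 and 0.945.

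**Figure D4:**
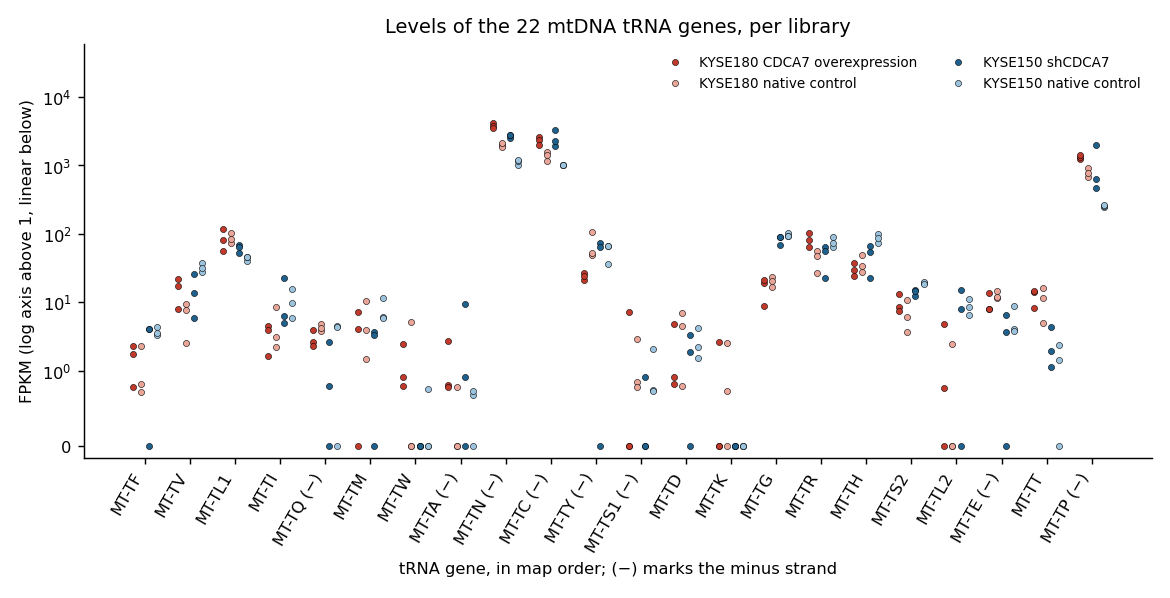
FPKM of each library (points; log axis above 1, linear below) for the 22 tRNA genes in map order. MT-TN, MT-TC and MT-TP lie between 248 and 4254 FPKM in all 12 libraries, and MT-TA and MT-TY, the neighbours of MT-TN and MT-TC, lie at 0 to 106 FPKM.

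shCDCA7 replicate 2 stood apart gene by gene, not by a common factor. Relative to the mean of shCDCA7 replicates 1 and 3, it held 3.65 times the FPKM of MT-CO1, 2.70 times that of MT-RNR2 and 2.07 times that of MT-CO2. The ratio was 1.196 for MT-ND6, 1.21 for MT-ATP8 and 1.03 for MT-ND3. Its scaled library size was 0.803 of its read total, against 0.966 and 0.968 in the other shCDCA7 libraries, and its log2 FPKM over all genes correlated with theirs at Pearson r of 0.959 and 0.961, against 0.990 between those libraries. Across the 15 rRNA and protein-coding genes, which all come from the same library, the log2 of this ratio had r = 0.61 and rho = 0.43 with gene length and r = 0.45 and rho = 0.34 with GC content. What set this library apart was not tested.

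Without replicate 2, the mean FPKM with shCDCA7 over that in native KYSE150 cells was 3.24 for MT-RNR2, 1.78 for MT-RNR1, 1.55 for MT-ND4L, 1.49 for MT-CO2, 1.43 for MT-CO1 and 1.43 for MT-ND4. It was 0.798 for MT-CO3, 0.808 for MT-CYB and 0.827 for MT-ATP6. In that fit, 11 of the 27 members were called higher and 6 lower by limma-trend, while 7982 of the 14342 genes were called in all, 4232 higher and 3750 lower. The members called higher were MT-RNR1, MT-RNR2, MT-CO1, MT-CO2, MT-ND4, MT-ND4L, MT-ND6, MT-TN, MT-TC, MT-TP and MT-TL1. Those called lower were MT-CO3, MT-ATP6, MT-CYB, MT-TH, MT-TV and MT-TS2, so that mRNAs of the same strand were called in both directions. Without replicate 2 the log2 differences of MT-ND1, MT-ND2 and MT-TI, none of them called, were −0.11, −0.059 and 0.16. The plot of single libraries shows that replicates 1 and 3 followed each other over all 15 genes.

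**Figure D5:**
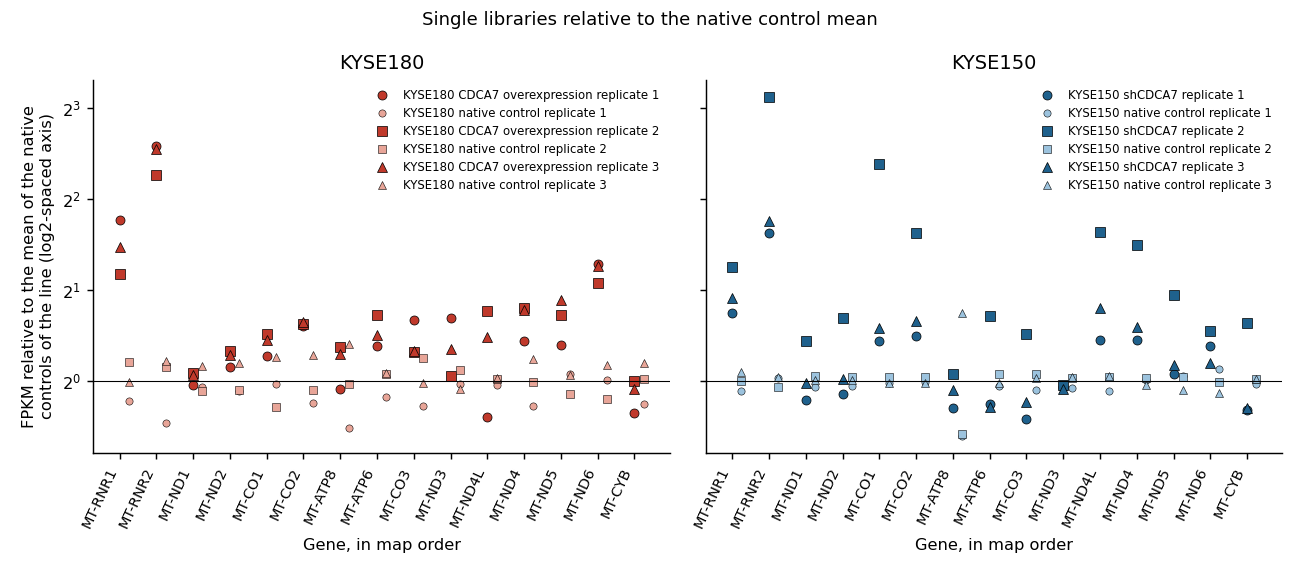
FPKM of each library relative to the mean of the native controls of its line (log2-spaced axis) for the 2 rRNA and 13 protein-coding genes in map order, KYSE180 left and KYSE150 right. In KYSE150, shCDCA7 replicate 2 (squares) lies above replicates 1 and 3 for all genes, from 1.03 times their mean at MT-ND3 to 3.65 times at MT-CO1.

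The ends of the coding genes were examined because 6 of the 13 are annotated to end in T or TA and gain a full stop codon only when a poly(A) tail is added. The other 7 carry a whole stop codon in the annotated gene. Among the 7, MT-ATP6 shares its last annotated base with the first of MT-CO3 (overlap of 1 base), so the end of its mRNA cannot be read from the annotation. The grouping below is by annotated end. The last bases of 4 genes are shown, with the end in capitals: a bare T, a standard stop, and the AGA and AGG ends of MT-CO1 and MT-ND6, which are arginine codons in the standard code.
MT-ND4: gggttttcctctT
MT-CO2: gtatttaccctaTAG
MT-CO1: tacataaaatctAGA
MT-ND6: gctcgggggaatAGG
The ratio of mean FPKM with overexpression to that in native KYSE180 cells had a median of 1.25 (0.909 to 1.61) for the 6 genes and of 1.46 (1.16 to 2.31) for the 7. With shCDCA7 over native KYSE150 cells it had a median of 1.06 (0.956 to 1.90) and of 1.37 (0.936 to 2.69). The ranges of both kinds of ending overlap, and no test was made.

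The effects of the 2 manipulations, which share no library, were compared in a single fit of all 12 libraries. The contrast was overexpression minus control in KYSE180, minus shCDCA7 minus control in KYSE150. None of 29 tested members passed it in limma-trend, while 5.57% of all 17088 genes did, and 4 members had an unadjusted p under 0.05. These were MT-TV (2.40, SE 0.73, adjusted p = 0.0813), MT-TR (1.72, SE 0.53, adjusted p = 0.0828), MT-ND6 (0.83, SE 0.28, adjusted p = 0.103) and MT-TS2 (0.95, SE 0.40, adjusted p = 0.193). For the rRNAs the difference was 0.33 (SE 0.62, adjusted p = 0.804) for MT-RNR2 and 0.51 (SE 0.34, adjusted p = 0.407) for MT-RNR1. CDCA7 was raised in 1 line and lowered in the other, and these differences do not show that the rRNA responses were equal. MT-ND6 passed with library totals (0.97, adjusted p = 0.0469), with scaling by nuclear reads (0.97, adjusted p = 0.0490) and with limma-voom (0.83, adjusted p = 0.0410). Without shCDCA7 replicate 2, MT-TV (2.87, adjusted p = 0.0296) and MT-TY (−1.74, adjusted p = 0.0375) passed.

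Native KYSE180 cells differed from native KYSE150 cells in genes of all 3 classes. Of 29 tested members, 6 were called higher and 6 lower in KYSE180 by limma-trend, against 33.4% and 24.6% of all 17088 genes, 58% in all. The groups did not overlap for 16 genes in the higher and 8 in the lower direction, against 39.4% and 31.8% of all genes. By class, 4 tRNAs were called higher and 5 lower, 2 of 13 mRNAs were called higher, and 1 rRNA was called lower. The share called is thus below that of all genes, and among 14 tested tRNAs it is near it. MT-TT, MT-TS2 and MT-TL2, counted there, passed the filter on reads only through the line where they are higher. Of the 13 mRNAs, 12 had a difference above 0, and limma-voom called 6 mRNAs and 16 members in all.

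MT-TG showed the clearest difference between the native lines, at 23.1, 16.6 and 20.1 FPKM in KYSE180 against 103, 92.3 and 91.9 FPKM in KYSE150 (−2.22, SE 0.26, adjusted p = 2.22e-05, limma-trend). MT-TV was at 2.53, 7.80 and 9.56 FPKM in KYSE180, against 37.3, 27.6 and 31.2 FPKM in KYSE150 (−2.25, SE 0.52, adjusted p = 0.00306). MT-TP was at 681, 923 and 775 FPKM, against 248, 253 and 265 FPKM (1.62, SE 0.41, adjusted p = 0.00500). For all 3 genes the lines did not overlap. MT-TT, the tRNA for threonine, had 18, 6 and 15 reads in KYSE180 and 2, 3 and 0 in KYSE150 (2.42, SE 0.50, adjusted p = 0.00147), so its size rests on very few reads. MT-TT passed the filter on reads only through KYSE180 libraries, and MT-TS2 and MT-TL2 only through KYSE150 libraries. MT-TS2 had 11, 4 and 7 reads in native KYSE180 cells and 24, 23 and 22 in native KYSE150 cells. The filter itself thus favoured a difference for these genes, and their calls are no support for one. MT-TN (0.82, adjusted p = 0.00637) and MT-TL1 (0.96, adjusted p = 0.00423) were also higher in KYSE180. MT-TH (−1.25, adjusted p = 0.00908), MT-TS2 (−1.47, adjusted p = 0.000968) and MT-TL2 (−2.66, adjusted p = 0.0286) were lower. The call of MT-TL2, with 3, 0 and 0 reads in KYSE180 and 13, 9 and 16 in KYSE150, was lost without native KYSE180 replicate 2 (0.0843) or 3 (0.0913) and without native KYSE150 replicate 1 (0.0635) or 3 (0.0787), within a range of 0.00366 to 0.0913 over 18 alternatives.

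MT-RNR1 was at 632, 847 and 729 FPKM in native KYSE180 cells, against 1392, 1497 and 1607 FPKM in native KYSE150 cells (−1.03, SE 0.24, adjusted p = 0.00297, limma-trend), and it was called in all 18 alternatives. MT-RNR2, at 2136 ± 510 FPKM in KYSE180 and 3238 ± 138 FPKM in KYSE150 (SD, n = 3 each), did not pass (−0.63, SE 0.44, adjusted p = 0.236). The mRNAs called higher in KYSE180 were MT-ND1, at 2092, 2039 and 2473 FPKM against 1238, 1352 and 1311 FPKM (0.75, SE 0.22, adjusted p = 0.0128), and MT-CYB, at 2038, 2466 and 2791 FPKM against 1406, 1465 and 1462 FPKM (0.74, SE 0.28, adjusted p = 0.0415). The lines did not overlap for either gene. The MT-CYB call was lost without native KYSE180 replicate 2 (0.0750) or 3 (0.103), without native KYSE150 replicate 1 (0.103), 2 (0.0911) or 3 (0.0912), and without replicate 3 of overexpression (0.0591) or shCDCA7 (0.0501), which enter the fit through the shared variance. The 18 alternatives gave adjusted p between 0.0108 and 0.134.

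Copies of mtDNA in the nuclear genome can take reads that come from mitochondria. The table holds 407 such pseudogenes, and 84 had a read. Relative to the mtDNA reads of the same library, they took 1.17 to 1.44% with overexpression, against 1.58 to 1.70% in native KYSE180 cells. With shCDCA7 they took 0.545 to 0.640%, against 0.891 to 0.963% in native KYSE150 cells. These shares are over all mtDNA reads, rRNA included, so a lower share does not mean fewer reads on the copies. The copies had 15710, 21887 and 22192 reads with overexpression, against 12272, 15420 and 18163 in native KYSE180 cells. With shCDCA7 they had 5308, 12243 and 5671 reads, against 7020, 6719 and 7196 in native KYSE150 cells. In both lines these reads overlapped. The 5 copies with most reads, MTATP6P1, MTND2P28, MTND1P23, MTCO1P12 and MTCO3P12, lie between positions 629062 and 634922 of chromosome 1 (GRCh38). MTATP6P1 was at 1152 ± 169 FPKM with overexpression and 679.9 ± 159 FPKM in native KYSE180 cells, and at 284 ± 170 FPKM with shCDCA7 and 189.6 ± 18.5 FPKM in native KYSE150 cells (SD, n = 3 each). MTND1P23 was at 282 ± 24.5 FPKM with overexpression and 265 ± 36.9 FPKM in native KYSE180 cells, and at 0.966 ± 0.914 FPKM with shCDCA7 and 1.03 ± 0.379 FPKM in native KYSE150 cells. Within each line its means differed by less than 1 SD of the controls, while KYSE180 cells held far more than KYSE150 cells. How many reads of these copies came from mtDNA was not tested.

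Nuclear genes that serve mtDNA transcription, replication, RNA processing and rRNA modification were described as a list of 47 genes in the table, all tested. In KYSE180, 1 rose and 5 fell with overexpression (limma-trend), beside 4.65% called higher and 4.43% lower over all genes, with a median log2 difference of −0.18, against −0.0049 over all genes. TFB1M, which methylates the 12S rRNA, rose by 0.83 (SE 0.15, adjusted p = 0.0238), at 4.88 ± 0.592 FPKM with overexpression and 2.31 ± 0.373 FPKM in its controls (SD, n = 3 each). PNPT1, an exoribonuclease of mitochondrial RNA decay, fell by 1.34 (SE 0.32, adjusted p = 0.0438), at 10.9 ± 0.766 and 31.9 ± 17.5 FPKM, with a wide spread among the controls. FASTKD5, which serves the processing of mRNA ends that lack a flanking tRNA, fell by 0.79 (SE 0.12, adjusted p = 0.0184), and its relative FASTKD3 fell by 0.62 (SE 0.14, adjusted p = 0.0394).

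In KYSE150, 2 of the 47 rose and 7 fell with shCDCA7, a share near the 19.9% called over all genes, with a median of −0.04 against 0.0020 over all genes. REXO2, which degrades short RNAs, rose by 0.49 (SE 0.09, adjusted p = 0.0152, limma-trend), and TFB2M, the initiation factor of the mitochondrial RNA polymerase, rose by 0.38 (SE 0.09, adjusted p = 0.0318). DDX28, an RNA helicase of large subunit assembly, was at 1.52 ± 0.155 FPKM with shCDCA7 and 5.77 ± 0.453 FPKM in its controls (SD, n = 3 each), and fell by 1.43 (SE 0.11, adjusted p = 0.002). MRM1, which methylates the 16S rRNA, fell by 1.13 (SE 0.11, adjusted p = 0.0028), and C6orf203, a mitochondrial RNA-binding protein also called MTRES1, fell by 0.70 (SE 0.12, adjusted p = 0.0117). Of 76 tested nuclear genes for subunits of the respiratory complexes, none was called by limma-trend in KYSE180 (median 0.14). There, 11 had an unadjusted p under 0.05, 9 higher and 2 lower, and limma-voom called 1. In KYSE150, 7 rose and 1 fell (median 0.12), where 10% of all genes were called higher and 9.86% lower, 19.9% in all. Of the 76, 21 had an unadjusted p under 0.05 in KYSE150, 19 higher and 2 lower, and limma-voom called 8.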

How the data were processed

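RNA sequencing libraries from KYSE180 and KYSE150 cells, 3 per group, were grouped by the sample labels. The table does not name the unit of its values. The values the authors deposited are FPKM: multiplied by gene length they are whole multiples of 1 step per library for 100% of values above 0 (tolerance 0.01 reads), which returned the reads. Per the submitters' processing notes, HISAT2 2.0.5 and DESeq2 1.20.0 were used, with the build given as mm10, a mouse build. The IDs and positions of all 58735 genes match GENCODE 29 for human GRCh38, from which strands and sequences were taken. The counting tool, its use of strand and of multiply mapping reads, and any selection of poly(A) RNA or removal of rRNA are not given in the sources used here. Each of these can change levels of mtDNA classes relative to each other.

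Genes were tested where at least 3 libraries held 10 or more reads, scaled to the median library, and the sum was 15 or more, with limma-trend on log2(FPKM + 1) (limma 3.58.1, R 4.3.3), two-sided. In limma-trend the variance of each gene is drawn toward a trend with level over all genes. Each line was fitted alone. Contrasts across lines came from 1 fit of 4 groups. Benjamini-Hochberg adjustment ran over all genes tested, and the threshold was 0.05. The added 1 makes changes of genes near 1 FPKM smaller than their ratio. Other summaries used Python 3.11.15 with pandas 2.3.3. The fit within each line was also run on simulated counts with the same dispersion for all genes and no outlying library. Those conditions are unlike these data, so that run does not vouch for the calls. Anticodons were found as their known letters after a T near the middle of the gene.

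The members and gene lists were chosen with earlier results of these data known. All rRNA and protein-coding genes and every tested tRNA gene are named. From the list of expression factors up to 3 called genes per direction and line are named by size of change, and of the nuclear copies the 5 with most reads. Groups of 3 against 3 cannot go below p = 0.10 in a permutation test of a single value, so none was run. The alternatives were library totals, scaling by nuclear reads, no filter, an added 0.1, limma-voom on the recovered reads, a replicate block, a fit of all 12 libraries and each library left out.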

Additional observations from a re-analysis of the deposited data

How the results depend on the processing

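The 22 calls of an mtDNA gene, over both manipulations and the native lines, kept their direction in every alternative run, and 25 results changed sign in at least 1, none of them a call. With no filter on low reads 0 members were called in KYSE180 and 1 in KYSE150, and with limma-voom on the recovered reads 10 were called in KYSE180. For the difference between the effects, library totals, nuclear reads and limma-voom each called 1 member. With each library left out in turn, the called members numbered 0 to 4 in KYSE180, 1 to 17 in KYSE150, 0 to 2 for the difference and 10 to 14 between the native lines. On the log2 scale the ratio of group means in KYSE150 then ran from 1.37 to 2.02 for the rRNA share of all reads, 0.10 to 0.73 for that of mRNAs and 0.42 to 1.05 for all mtDNA genes, the lowest each time without shCDCA7 replicate 2. The ratio for the tRNA share of mtDNA reads in KYSE180 ran from −0.035 to 0.16, and that for the − strand share in KYSE150 was 0.27 from sums of FPKM.

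With library totals and with nuclear reads as the scale, MT-ND1 differed by −0.086 and −0.041 in KYSE180. In KYSE150 these scales gave −0.21 and −0.16 for MT-ATP6, −0.072 and −0.021 for MT-ND2, −0.26 and −0.21 for MT-CYB, −0.20 and −0.14 for MT-ND1, and −0.22 and −0.17 for MT-ATP8. For the difference between the effects they gave 0.11 and 0.10 for MT-ND1, and library totals gave 0.0083 for MT-TG. The cause was not tested.

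Leaving out each library, the KYSE180 difference ran from −0.013 to 0.13 for MT-ND1, −0.33 to 0.20 for MT-TL1, −0.57 to 0.027 for MT-TG and −0.18 to 0.58 for MT-TT. The KYSE150 difference ran from −0.33 to 0.14 for MT-CO3, −0.27 to 0.23 for MT-ATP6, −0.059 to 0.36 for MT-ND2, −0.31 to 0.17 for MT-CYB, −0.11 to 0.21 for MT-ND1, −0.18 to 0.49 for MT-ATP8, −2.78 to 0.33 for MT-TY, −0.69 to 0.32 for MT-TI and −1.68 to 0.33 for MT-TL2. The difference between the effects ran from −0.50 to 0.067 for MT-CO2, −0.35 to 0.17 for MT-ND4, −0.10 to 0.32 for MT-ND2, −0.30 to 0.17 for MT-CYB, −0.17 to 0.15 for MT-ND1, −0.25 to 0.43 for MT-ATP8, −0.36 to 0.24 for MT-TG, −1.74 to 1.38 for MT-TY, −0.31 to 1.15 for MT-TE, −0.59 to 0.41 for MT-TI and −0.85 to 0.089 for MT-TT. Between the native lines MT-TY ran from −0.093 to 0.46. None of these passed the test with all libraries.

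No pairing of libraries by replicate number was seen. Same-numbered libraries deviated together at r between −0.08 and 0.05 in both lines, and not every library correlated best with its own number. With deviations taken from means of 3 libraries, these values cannot show that the numbers carry no pairing. With the replicate block, 1 member was called in KYSE180, 3 in KYSE150, 0 for the difference and 15 between the native lines. Depth limits the tRNA genes outside MT-TN, MT-TC and MT-TP, where several values rest on fewer than 30 reads.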
